A study of Bos taurus with 6 samples.

Results

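The sarcomere genes ACTA1, MYH7 and MYL2 were examined in satellite cells (SCs) and fibro-adipogenic progenitors (FAPs) of bovine muscle. They were chosen by their identifiers, ENSBTAG00000046332 (ACTA1), ENSBTAG00000009703 (MYH7) and ENSBTAG00000018369 (MYL2), and are 3 of the 27607 identifiers in the count table. All 3 were among the 14039 genes with enough counts to be tested. The deposited table lists identifiers without names, and the gene table used here matched 0 of them, so that the pairing of each identifier with its gene was taken as given.

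Both cell types came from the semitendinosus muscle of Belgian blue cattle, and no genotype or drug treatment set the groups apart. The study drew on male and female cattle over a range of ages, and the sex and age behind each library are not known here. According to the study's methods, cells bearing the endothelial and blood markers CD31 and CD45 were left out, and CD56 told SCs (CD56+) from FAPs (CD56-) among CD29+ cells. Each cell type was then grown on collagen at 2000 cells per cm2 in the same growth medium, with 20% serum and 5 ng/ml of the growth factor bFGF, and lysed after 72 h. The data held 3 libraries per cell type, with the letters A, B and C, and none of cells moved to a differentiation medium. The SC libraries held 19666738 to 30115337 counted reads and the FAP libraries 22737901 to 37791193. The labels do not say whether the letters stand for animals or for cultures, so that the p-values below measure the spread between these libraries, which may be technical. The sorted cell types could not be checked here against marker genes, since no marker was paired with an identifier. The study itself reported lower PAX7 and NCAM1 in FAPs than in SCs, and higher PDGFRA, PPARG and SCARA5, from its RNA sequencing. It also compared surface markers of the sorted cells by flow cytometry.

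A sarcomere is the contractile unit of a muscle fibre, in which thin filaments of actin slide past thick filaments of myosin. ACTA1 encodes skeletal muscle alpha-actin, the main actin of thin filaments in adult skeletal muscle. MYH7 encodes the slow, or beta, myosin heavy chain, the motor protein of slow fibres and of heart ventricle, and MYL2 encodes the regulatory light chain that binds the neck of that heavy chain. Satellite cells divide as mononuclear myoblasts in growth medium and assemble sarcomeres after they leave the cell cycle and fuse, whereas FAPs are mesenchymal cells that give rise to fat and connective tissue.

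All 3 genes were counted in every SC library. In FAPs, MYH7 and MYL2 were close to the limit of counting, and ACTA1 was low, with 7 to 23 reads per library. Mean levels in SCs were 183.1 CPM (reads scaled to a common library size, here adjusted with TMM factors) for ACTA1, 17.3 CPM for MYH7 and 12.3 CPM for MYL2. The corresponding means in FAPs were 0.476, 0.0724 and 0.0400 CPM. Each gene was called higher in SCs, as were 13.6% of all tested genes.

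For ACTA1, the actin of the thin filament, 7027, 4486 and 5538 reads were counted in SCs A, B and C, and 23, 9 and 7 reads in FAPs A, B and C. As TMM-adjusted levels these were 208.6, 188.6 and 152.3 CPM in SCs (183.1 ± 28.5, SD, n = 3) and 0.744, 0.317 and 0.367 CPM in FAPs (0.476 ± 0.234, SD, n = 3). The groups did not overlap, and the lowest SC library lay 204.5-fold above the highest FAP library. Such a gap of any size, with SCs higher, was found in 38.0% of all tested genes. The log2 fold change of ACTA1, SCs minus FAPs, was 8.51 (adjusted p = 3.79e-12, edgeR quasi-likelihood F-test). P-values were corrected over all tested genes by the Benjamini-Hochberg method. This fold change divided by the square root of its F statistic gave 0.202, which is not a direct standard error. With the alternative tools DESeq2 and limma-voom, the standard errors were 0.333 and 0.412. From the counts summed within each cell type, the ratio was 365.2 with an exact 95% counting interval from 267.0 to 513.7.

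For MYH7, the slow myosin heavy chain, there were 544, 454 and 610 reads in SCs A, B and C, and 4, 1 and 1 reads in the corresponding FAP libraries. SC levels were 16.1, 19.1 and 16.8 CPM (17.3 ± 1.55, SD, n = 3), against 0.129, 0.0352 and 0.0524 CPM in FAPs (0.0724 ± 0.0502, SD, n = 3). The groups again did not overlap, and FAPs A was the only FAP library with more than 1 read. The log2 fold change of MYH7 was 7.74 (adjusted p = 3.29e-11 from the same edgeR test), and the value derived from its F statistic was 0.238. Standard errors were larger, at 0.604 with DESeq2 and 0.409 with limma-voom. The ratio of summed counts was 223.8, with an interval from 102.6 to 610.9. With only 6 reads in FAPs, the size of this change is known less well than its direction. Without FAPs replicate A the log2 fold change of MYH7 was 8.51, and with a prior count of 2 in place of edgeR's smaller default it was 6.89.

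For MYL2, the light chain that pairs with this heavy chain, 341, 300 and 511 reads were counted in SCs A, B and C, and 1 read in each FAP library. The levels were 10.1, 12.6 and 14.1 CPM in SCs (12.3 ± 1.99, SD, n = 3) and 0.0324, 0.0352 and 0.0524 CPM in FAPs (0.0400 ± 0.0108, SD, n = 3). The differences between the FAP values of MYL2 stem from library size alone, since each rests on 1 read. The log2 fold change of MYL2 was 8.17 (adjusted p = 1.68e-10 from the same edgeR test), and the value derived from its F statistic was 0.302. Standard errors were larger, at 0.849 with DESeq2 and 0.474 with limma-voom. The log2 fold change was 6.84 with a prior count of 2 and 8.85 on counts thinned to the smallest library. The ratio of summed counts was 320.7, with an interval from 109.5 to 1558, and it was 106.9 when 3 counts, taken as the smallest count that can be relied on, were set in each FAP library.

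**Figure D1:**
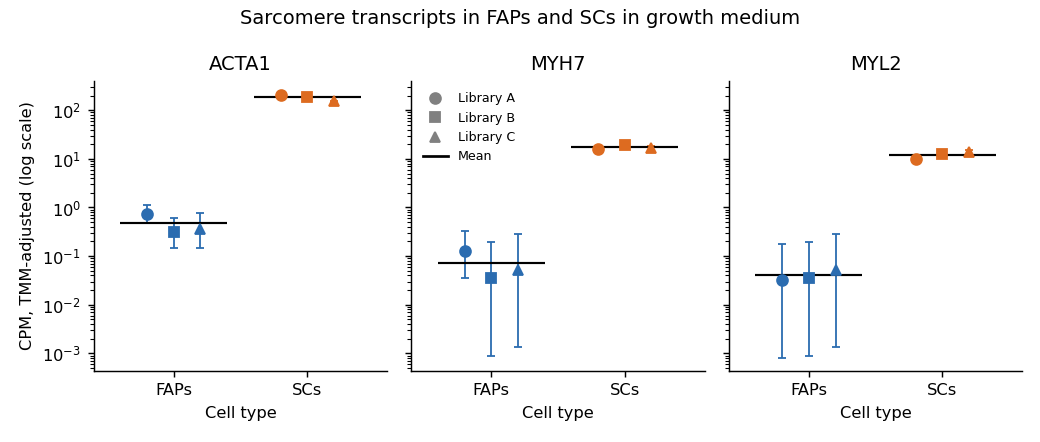
Level of each gene in each library, in TMM-adjusted CPM on a log scale, for 3 FAP libraries (blue) and 3 SC libraries (orange), with the letter of the library as the symbol. Vertical bars are exact 95% counting intervals and black lines are group means: the SC libraries sit between 10.1 and 208.6 CPM over the 3 genes, and every FAP library sits at 0.744 CPM or below.

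The intervals of the 3 ratios overlapped, and no difference in fold change between the genes was tested. Within each letter the direction was the same. The ratio of the SC library to the FAP library of the same letter was 280.1 (A), 595.2 (B) and 415.3 (C) for ACTA1. It was 124.7, 542.1 and 320.2 for MYH7, and 312.7, 358.2 and 268.2 for MYL2. Where the FAP library held 1 read, the exact counting interval of such a ratio spanned from 47.9 to 10615 in the case of MYL2 in letter C. The single-letter ratios of MYH7 and MYL2, with 1 to 4 reads in the FAP library, therefore show little beyond the direction. Those of ACTA1 were bounded more closely, with intervals of 186.5 to 442.2 (A), 313.2 to 1302 (B) and 201.4 to 1033 (C).

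Among the 14039 tested genes, the log2 fold change of ACTA1 was the 87th highest in SCs, that of MYL2 the 105th and that of MYH7 the 122nd. These ranks rest on few FAP reads, and the order of the 3 genes changed with the setting. With a prior count of 2, MYH7 (6.89) stood above MYL2 (6.84). On counts thinned to the smallest library, MYL2 (8.85) stood above ACTA1 (8.43). The median over all tested genes was 0.03, and 310 genes had a log2 fold change above 5. By reads, without correction for gene length, ACTA1 stood above 94.1% of tested genes in SCs, MYH7 above 48.8% and MYL2 above 41.2%. ACTA1 took 0.0249%, 0.0228% and 0.0184% of all counted reads in SCs A, B and C. Gene lengths were not at hand for the build of the count table, so that the 3 genes could not be ranked by transcript abundance. In bulk RNA, a few cells with much of a transcript and many cells with little of it cannot be told apart, and the share of SCs that carried these transcripts is unknown.

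**Figure D2:**
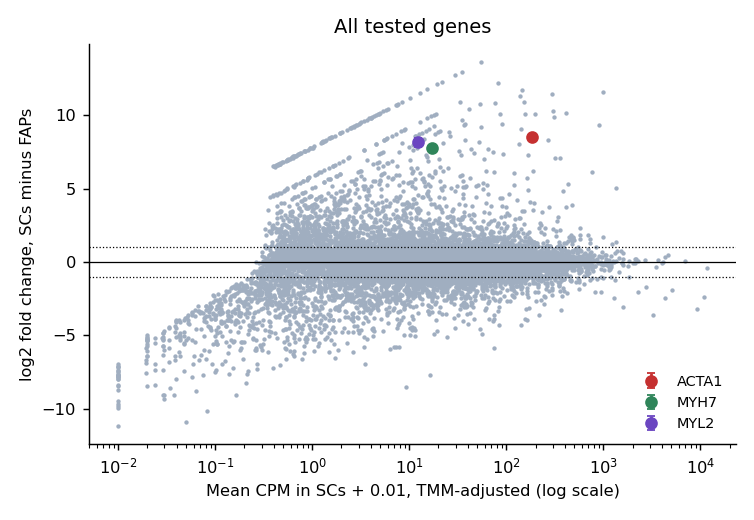
Log2 fold change (SCs minus FAPs) against mean level in SCs (TMM-adjusted CPM plus 0.01, log scale) for the 14039 tested genes in grey, with ACTA1, MYH7 and MYL2 coloured. Error bars, smaller than the symbols, are the fold change divided by the square root of its F statistic. They understate the uncertainty, as DESeq2 standard errors were 0.333 (ACTA1), 0.604 (MYH7) and 0.849 (MYL2). Dotted lines mark an absolute change of 1: the 3 genes lie between 7.74 and 8.51, within the upper edge of the cloud.

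The SC libraries were then compared with one another. SC levels varied by a coefficient of variation (CV, SD over mean) of 15.6% for ACTA1, 8.94% for MYH7 and 16.2% for MYL2. Counting error alone would give 1.35%, 4.40% and 5.20%, and the observed spread was larger with all libraries included. For genes within 2-fold of its SC level, the median CV was 6.38% for ACTA1, 8.28% for MYH7 and 8.97% for MYL2. The CV of ACTA1 was above that of 95.4% of the 1602 such genes, the CV of MYL2 above 84.1% of 3893, and the CV of MYH7 above 54.9% of 4297. Each CV rests on few libraries and was 7.09% for ACTA1 without SCs C, 2.73% for MYH7 without SCs B, which is below its counting error, and 7.71% for MYL2 without SCs A. With all libraries, MYH7 varied about as much as other genes of its level, and ACTA1 varied more than most.

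**Figure D3:**
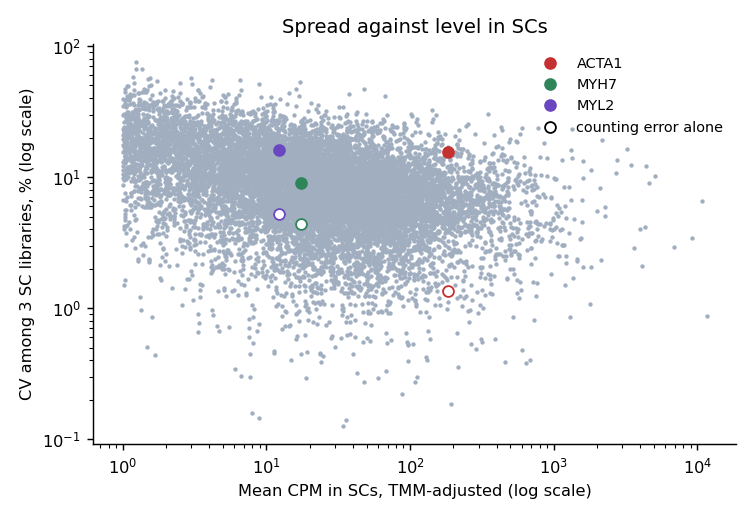
CV among the 3 SC libraries (%) against mean SC level (TMM-adjusted CPM), both on log scales, for tested genes of at least 1 CPM in SCs (grey) and the 3 sarcomere genes (filled circles). Open circles give the CV from counting error alone, 1.35% for ACTA1 against the 15.6% observed.

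The order of the SC libraries was not the same for the 3 genes. ACTA1 was highest in SCs A, at 1.14 times the SC mean, and lowest in SCs C, at 0.831 times. MYL2 had the opposite order, with 0.825 times its mean in SCs A and 1.15 times in SCs C. MYH7 was highest in SCs B, at 1.10 times its mean, with 0.931 times in SCs A and 0.968 times in SCs C.

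These differences were compared by pairs of libraries. ACTA1 in SCs A was 1.37 times its level in SCs C (exact 95% counting interval 1.32 to 1.42), and 3.62% of genes of similar level differed as much between these libraries. SCs B exceeded SCs C by 1.24 times (1.19 to 1.29), which 1.62% of such genes matched, whereas 36.0% matched the ratio of 1.11 between SCs A and SCs B. MYL2 in SCs A was 0.720 times its level in SCs C (0.626 to 0.828), and 13.1% of genes of similar level differed as much. It was also lower in SCs A than in SCs B, at a ratio of 0.802 (0.685 to 0.940). Between SCs B and SCs C, MYL2 did not differ beyond counting error (0.898, 0.776 to 1.04), so that their order is not settled for this gene. For MYH7, SCs A and SCs C did not differ beyond counting error, with a ratio of 0.963 (0.856 to 1.08). With 3 libraries no test of their order was possible, and SCs A and SCs C were also the pair of libraries that differed most over all tested genes, as chi-square over its degrees of freedom was 27.0 against 6.71 to 10.1 in the other SC pairs. The part of this wider difference in the spread of the 3 genes was not tested.

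**Figure D4:**
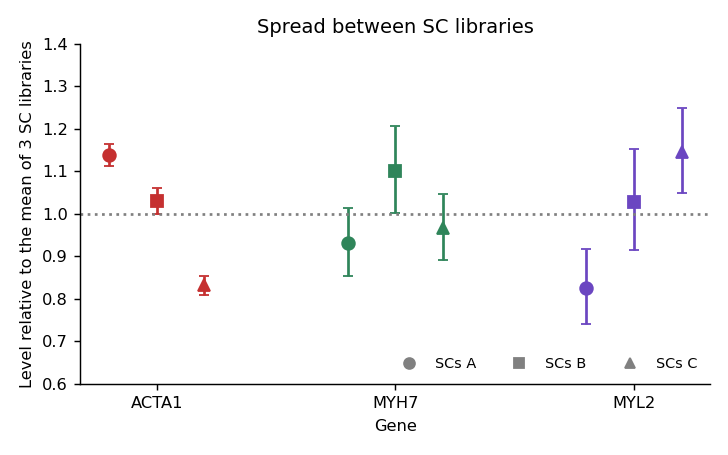
Level of each gene in SCs A (circle), B (square) and C (triangle) divided by the mean of the 3 SC libraries, with exact 95% counting intervals. ACTA1 has 1.14 in A and 0.831 in C, while MYL2 has 0.825 in A and 1.15 in C, and the MYH7 libraries lie between 0.931 and 1.10.

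Ratios of counts within a library do not depend on how libraries are scaled. Per 100 reads of ACTA1, there were 4.85, 6.69 and 9.23 reads of MYL2 in SCs A, B and C, a 1.90-fold range, and the counting intervals of the 3 libraries did not overlap. MYH7 gave 7.74, 10.1 and 11.0 reads per 100 of ACTA1, where SCs A (7.08 to 8.45) lay below the others and SCs B and C overlapped. Per 100 reads of MYH7, MYL2 gave 62.7, 66.1 and 83.8 reads, and the interval of SCs C (74.3 to 94.4) overlapped that of SCs B (56.9 to 76.6). The myosin transcripts were therefore fewest relative to actin in SCs A by reads. As these are ratios of reads, they say nothing about the molar ratio of the proteins.

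**Figure D5:**
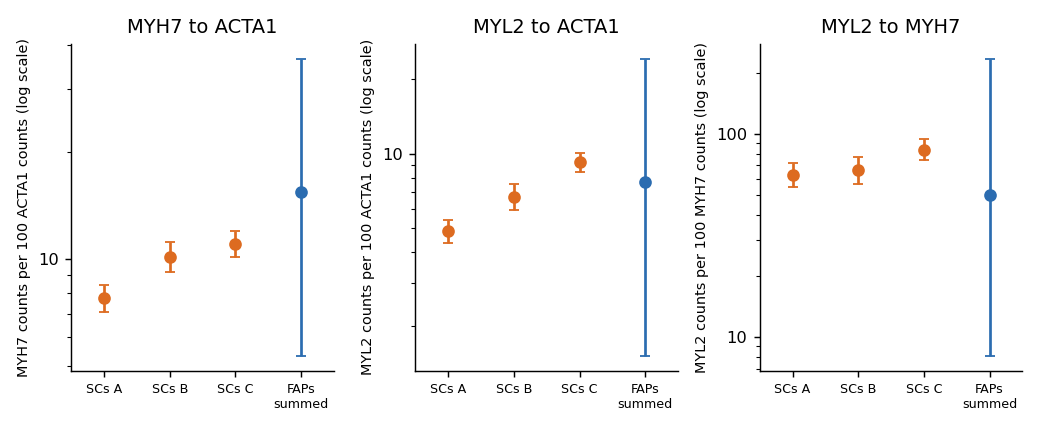
Reads of one gene per 100 reads of another within each SC library (orange) and in the FAP libraries summed (blue), on log scales, with exact 95% counting intervals. MYL2 to ACTA1 ranges from 4.85 in SCs A to 9.23 in SCs C, and the FAP value of 7.69 has an interval that covers all SC libraries.

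The few reads found in FAPs were set against the SC levels. ACTA1 in FAPs amounted to 0.274% of its SC level (exact 95% counting interval 0.195% to 0.375%), MYH7 to 0.447% (0.164% to 0.975%) and MYL2 to 0.312% (0.0642% to 0.914%). These shares could not be told apart at this depth. Per 100 reads of ACTA1, the FAP libraries together held 15.4 reads of MYH7 (5.32 to 36.6) and 7.69 reads of MYL2 (1.52 to 24.2), and both intervals cover the ratios of every SC library. Of 8829 tested genes with at least 10 CPM in SCs, 78 had a FAP level under 1% of the SC level and 49 were at a lower share than ACTA1. In 20 of these genes the one-sided 95% upper limit on the share was below the lower limit of ACTA1, without adjustment for the number of genes. Among FAPs, ACTA1 was highest in FAPs A (counting interval 0.472 to 1.12 CPM), with 0.145 to 0.602 CPM in FAPs B and 0.147 to 0.756 CPM in FAPs C. Its CV among FAPs was 49.1%, against 28.3% from counting error, and was above that of 92.8% of 1174 genes of similar FAP level.

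The genes with the most similar profile were found from log2 CPM over the 6 libraries, centred on the mean of each gene. By the root mean square difference, ENSBTAG00000009772 was nearest to MYL2 (0.0597 on the log2 scale), with 374, 329 and 523 reads in SCs A, B and C and 1 read in each FAP library. ENSBTAG00000018843 was nearest to MYH7 (0.140), with 284, 223 and 340 reads in SCs and 1 read over all FAP libraries. No name was paired with either. Of the 14038 other tested genes, MYL2 was the 23rd nearest to MYH7, at a difference of 0.358, and ACTA1 was the 104th at 0.753. Because FAP counts are so low, this measure depends on the level of a gene in SCs as well as on its pattern.

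ACTA1 has close relatives among the actins, and MYH7 lies next to MYH6, a closely related heavy chain gene, in the RefSeq gene table (assembly ARS-UCD2.0), which also places the microRNA gene MIR208B inside MYH7. How reads that match more than 1 gene were counted is not stated, so that the counts of ACTA1 and MYH7 carry this uncertainty. No gene overlapped ACTA1 or MYL2 in that table. Other parts of the sarcomere (tropomyosins, troponins, titin, Z-disc proteins) and the myogenic regulators could not be followed, because their identifiers were not paired with names.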

How the data were processed

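Counts of 3 FAP and 3 SC libraries were used. The authors prepared stranded poly(A) libraries, mapped single-end reads to bosTau9 (ARS-UCD1.2) using STAR 2.7, and obtained gene counts with featureCounts. The deposited counts are raw and were not normalized. Strand settings are not given in the sources used here. Library totals were 19666738 to 37791193 counts, so that 3 counts equal 0.0825 to 0.157 CPM on TMM-adjusted sizes. Intervals (Poisson or conditional binomial, 95%) cover counting error only and leave out other variation between libraries. They may be too narrow even for counting error, since amplified reads are not independent molecules.

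Genes were filtered with filterByExpr (minimum count 10), scaled with TMM factors and tested with edgeR 4.0.16 (quasi-likelihood, R 4.3.3, default prior count, cell type as the only term) over all 14039 genes. Calls needed an FDR below 0.05 and an absolute log2 fold change above 1, the study's cutoffs. Limma 3.58.1 with voom, the study's tool, DESeq2 1.42.0, other scalings and filters, thinning, a replicate block and leaving out each library were alternatives. Counts were also simulated for this comparison (13574 genes tested, 200 drawn to change by 2 on the log2 scale, 195 of them tested). On these, edgeR recovered 100% with 0 false calls, and DESeq2 97.9% with 0. Both cell types were drawn there from SC levels, and far fewer genes changed than the 3943 called in the data. The simulation therefore does not show how the tests perform at FAP counts as low as those of ACTA1, MYH7 and MYL2.

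The members and gene lists were chosen with earlier results of these data known. The named genes were the 3 members and, by likeness of profile, the nearest gene to a member, at most 2 identifiers. Lists of 129 other sarcomere, regulator and marker symbols could not be used, since 0 identifiers matched the 37063 genes of the table. There were 0 further columns with values of a sample. No sequences were at hand for these genes.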

Additional observations from a re-analysis of the deposited data

How the results depend on the processing

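ACTA1, MYH7 and MYL2 were called higher in SCs by every test and setting tried, with adjusted p up to 1.14e-08, 3.38e-08 and 9.77e-08. Leaving out each library in turn gave log2 fold changes from 8.22 to 9.04 for ACTA1, 7.35 to 8.51 for MYH7 and 8.02 to 8.32 for MYL2. Within letter B, a value with no test that was chosen after seeing the data, they were 9.22, 9.08 and 8.48. With 3 counts set in each FAP library, also chosen after seeing the data, MYL2 gave 6.74. With the replicate block they were 8.55, 7.75 and 8.13. Same-lettered libraries deviated together with correlations of 0.200 (A), 0.0134 (B) and 0.167 (C), and the letters were not taken as pairs in the main fit. With 3 libraries per cell type, these correlations cannot show whether libraries of the same letter share an animal. The block gave 3942 called genes against 3943 without it.

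Under library totals in place of TMM factors, the median over all tested genes was a log2 fold change of 0.57, against 0.03. There were 3794 genes called higher in SCs and 1286 higher in FAPs, against 1908 and 2035. The 3 genes then had 9.05 (ACTA1), 8.26 (MYH7) and 8.68 (MYL2). Calls without 1 library numbered 4009 to 4086, with 1910 to 1982 higher in SCs and 2073 to 2167 higher in FAPs.

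The CV among SCs rests on 3 libraries. Without 1 of them it ran from 7.09% (without SCs C) to 22.0% for ACTA1, from 2.73% (without SCs B) to 11.8% for MYH7, and from 7.71% (without SCs A) to 23.0% for MYL2. Under other scalings it was 15.1% to 15.4%, 9.01% to 9.44% and 16.4% to 16.7%. With FAP counts between 1 and 23, depth limits the size of each fold change.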
